A study of Mus musculus with 12 samples.

Results

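The Rab genes encode small GTPases that mark the membranes of the cell. Each Rab cycles between a GTP-bound form on a vesicle or organelle, where it recruits tethers, motors and fusion factors, and a GDP-bound form that is kept soluble by a carrier protein. In killer T cells Rab27a is known for docking lytic granules at the contact with the target cell, and Rabs of recycling endosomes return T cell receptors to that contact. Dimethylation of histone H3 at lysine 79 (H3K79me2), placed by the methyltransferase DOT1L, is found over the transcribed part of active genes, starting near the transcription start.

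The members were the protein-coding mouse genes whose symbol is Rab, a number and at most 1 letter, which leaves out interactors such as Rab3gap1 and Rab11fip1. The rule found 59 of the 21900 protein-coding genes in the RefSeq table for GRCm38, the same build as mm10. H3K79me2 was measured by chromatin immunoprecipitation and sequencing in CD8 T cells that had been activated through CD3 and CD28 and expanded to day 8. The groups were cells given EPZ-5676 or SGC-0946, both inhibitors of DOT1L that compete with its methyl donor, and cells given 0.1% DMSO as vehicle. The labels put both inhibitors at 10 mM, a doubtful unit for such compounds in culture. All cells came from male mice of a CreERT2, Dot1l-flox, OT-I strain that were wild type at the first 2 of these and heterozygous for the OT-I T cell receptor transgene, so Dot1l was not deleted in any group. Each treatment had 2 immunoprecipitated and 2 input libraries from 2 biological replicates. The deposited data were 1 list of broad peaks per treatment, with 4443 peaks for EPZ, 55 for SGC and 12578 for DMSO.

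Read depth is unknown from these lists, and no spread between replicates can be measured, so no difference below has a test. Overlap of a single base between a peak and the gene interval sufficed to call a gene marked, and a gene without a peak is one where none was called. Intervals of shares are exact (Clopper-Pearson) 95% intervals that cover the counting of genes only. Fold enrichment is the authors' ratio for a peak over its background and was compared only within a list. The cells carried DMSO peaks in all 7 genes listed for CD8 T cells, which were Cd8a, Cd8b1, Cd3d, Cd3e, Cd3g, Lck and Ptprc. Only Cd8a and Cd8b1 among them encode CD8 itself. DMSO peaks lay in 0 of 2 CD4 T cell, 0 of 2 NK cell and 0 of 5 myeloid markers. Of 5 B cell markers 1 had a DMSO peak, Cd79a, through 0.254 kb of a peak shared with another gene.

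H3K79me2 peaks lay in 15 Rab genes with EPZ-5676, in 0 with SGC-0946 and in 31 with DMSO. The 15 genes were 25.4% of the family with EPZ (95% interval 15.0 to 38.4), against 15.9% of all protein-coding genes. The count of 0 with SGC stood beside 0.142% of all protein-coding genes. The 31 genes were 52.5% of the family in DMSO (95% interval 39.1 to 65.7), against 34.5% of all protein-coding genes. Every Rab gene with an EPZ peak also had a DMSO peak, as did all 3486 protein-coding genes with an EPZ peak. Of the DMSO-marked members 48.4% had an EPZ peak (95% interval 30.2 to 66.9), near the 46.1% of all DMSO-marked genes. With SGC 0 of the 31 DMSO-marked members had a peak (95% interval 0 to 11.2%), where 0.410% of all DMSO-marked genes did, and likewise 0 of the 15 EPZ-marked members, where 0.889% of all EPZ-marked genes did. Shares that low amount to less than 1 gene in a family of this size. With only peaks of −log10 q of at least 5, which ended 13 of the 31 DMSO calls, 8 members were marked with EPZ and 18 with DMSO (30.5%, against 17.3% of all genes). The 8 were 44.4% of those 18, near the 44.1% of all genes DMSO-marked at that cutoff.

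**Figure D1:**
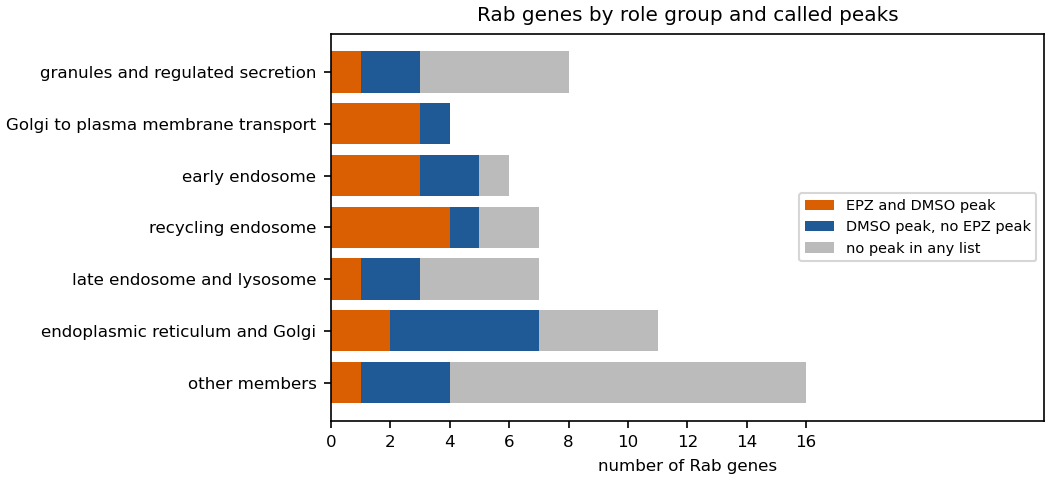
Number of Rab genes (x axis) in each role group (y axis) with peaks in both the EPZ and DMSO lists, in the DMSO list only, or in no list. All 4 members of the group for Golgi to plasma membrane transport were marked in DMSO, Rab13 by 8 bases only, and 3 of 8 in the granule group, where the share over all genes is 34.5%.

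Of the 8 Rabs of granules and regulated secretion, 1 was marked with EPZ and 3 with DMSO. Rab27a, which docks lytic granules at the plasma membrane, was the member with both. It lies on chromosome 9 from 73044810 to 73097623. EPZ peaks covered 8.63 kb of Rab27a at a fold enrichment of 4.78 in the EPZ list, against 32.6 kb in 2 DMSO peaks, the higher at 6.24 in the DMSO list. The EPZ peak thus held 26.5% of the bases under DMSO peaks and lay at the upstream end of the domain, from 0.613 to 9.24 kb past the first start. The main DMSO peak ran from 0.010 to 30.7 kb past that start. It therefore also covered the other start that RefSeq lists for Rab27a, 19.3 kb downstream, which lay outside the EPZ peak.

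The windows around both Rab27a starts are shown because the main DMSO peak begins inside the first and contains the second. Each runs from 250 bases before to 50 after a start (RefSeq, GRCm38.p6, plus strand, chr9:73044560-73044859 and chr9:73063898-73064197), and capitals mark bases under a DMSO peak.
Rab27a first start: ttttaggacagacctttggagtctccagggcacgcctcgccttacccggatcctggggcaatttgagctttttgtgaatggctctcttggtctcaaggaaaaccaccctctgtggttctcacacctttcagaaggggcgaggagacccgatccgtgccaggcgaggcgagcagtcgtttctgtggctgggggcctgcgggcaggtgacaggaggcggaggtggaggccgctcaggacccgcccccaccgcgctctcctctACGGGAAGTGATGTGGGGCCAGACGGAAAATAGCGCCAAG
Rab27a second start: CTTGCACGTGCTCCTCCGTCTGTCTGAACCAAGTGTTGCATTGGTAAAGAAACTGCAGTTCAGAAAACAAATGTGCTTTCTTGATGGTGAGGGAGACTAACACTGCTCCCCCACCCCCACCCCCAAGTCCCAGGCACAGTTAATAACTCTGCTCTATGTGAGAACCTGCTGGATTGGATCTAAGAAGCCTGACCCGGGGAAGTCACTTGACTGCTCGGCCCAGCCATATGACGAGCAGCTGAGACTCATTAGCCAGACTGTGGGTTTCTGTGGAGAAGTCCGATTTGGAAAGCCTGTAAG
EPZ peaks covered 0 bases of either window, and the DMSO peak covered 40 of the 300 bases of the first and all 300 of the second. The first window held 18 CpG dinucleotides and the second 6.

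The paralog Rab27b, which acts on secretory granules of platelets and mast cells, had no peak, and the nearest DMSO peak was 330.0 kb away. Rab3a, Rab3b, Rab3c and Rab3d, known from exocytosis in neurons and glands, likewise had none. A DMSO peak lay 1.26 kb from Rab3a and the nearest to Rab3d was 85.4 kb away. Rab37 and Rab26, both tied to secretory granules, were marked in DMSO at 8.89 and 3.96 and had no EPZ peak. Both of these peaks lay more in a neighbour: the Rab37 peak had 3.19 kb in that gene and 15.6 kb in Slc9a3r1, and the Rab26 peak had 1.15 kb in that gene and 7.72 kb in Traf7. Rab37 also held a further DMSO peak, 3.19 kb wide at 4.45 and wholly inside the gene. The window at the Rab3d start is given as that of an unmarked granule Rab (minus strand, chr9:21918134-21918433). It held 26 CpG dinucleotides, more than either Rab27a window and more than the windows of the other Rab3 genes. Those held 18 and 22 at the listed starts of Rab3a, 8 in Rab3b and 11 in Rab3c. The Rab3d window has no capitals because no base lay under a peak.
Rab3d: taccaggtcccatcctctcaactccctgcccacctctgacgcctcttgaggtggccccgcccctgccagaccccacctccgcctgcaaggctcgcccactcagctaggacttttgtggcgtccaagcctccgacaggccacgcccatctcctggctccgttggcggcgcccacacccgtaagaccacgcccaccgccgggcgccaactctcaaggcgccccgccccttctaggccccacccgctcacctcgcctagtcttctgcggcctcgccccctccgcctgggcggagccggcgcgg

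Of the 4 Rabs that carry vesicles from the Golgi to the plasma membrane, 3 were marked with EPZ and 4 with DMSO. Rab8a, an exocytic Rab of the plasma membrane and cilium, had the highest values of the family in both lists. Its EPZ peak stood at 7.67 in the EPZ list, and its DMSO peak at 10.4 in the DMSO list, above 97.6% of marked genes. Rab8a had 6.30 kb under EPZ peaks, against 11.0 kb in DMSO. The EPZ peak began 0.151 kb downstream of the start, whereas the DMSO peak began 4.93 kb upstream of it and touched no other protein-coding gene. The Rab8a window (plus strand, chr8:72160950-72161249) is shown because 0 of its bases lay under the EPZ peak, whereas all 300 lay under the DMSO peak.
Rab8a: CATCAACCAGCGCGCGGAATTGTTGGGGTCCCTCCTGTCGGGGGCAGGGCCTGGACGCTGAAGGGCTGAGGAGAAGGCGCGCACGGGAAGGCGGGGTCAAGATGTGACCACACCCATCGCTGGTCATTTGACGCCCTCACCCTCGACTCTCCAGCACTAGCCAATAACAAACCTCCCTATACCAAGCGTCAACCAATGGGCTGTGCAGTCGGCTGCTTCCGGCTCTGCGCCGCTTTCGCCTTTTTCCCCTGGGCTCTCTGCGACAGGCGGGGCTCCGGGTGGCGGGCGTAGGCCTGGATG

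Rab8b, the close paralog of Rab8a, had the widest coverage of any member in DMSO. EPZ peaks covered 12.8 kb of Rab8b, against 54.3 kb in 1 DMSO peak of 5.52. The single domain was called as 4 separate EPZ peaks, which began 0.021, 4.17, 9.64 and 26.9 kb past the start, the first being the highest at 5.79 in the EPZ list. Rab10, which delivers transporters such as GLUT4 to the cell surface, was likewise split, with 14.2 kb in 3 EPZ peaks, against 48.3 kb in 2 DMSO peaks. Its highest EPZ peak, 12.3 kb at 4.90, was again the one nearest the start. Rab13, a Rab of epithelial junctions, was marked in DMSO through 8 bases at the edge of a 3.19 kb peak that also overlapped Nup210l and Rps27, a ribosomal protein gene. An EPZ peak lay upstream of the Rab13 start and ended 98 bases short of the gene. The DMSO call of Rab13 ended when 500 bases were required, which left 3 of 4.

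**Figure D2:**
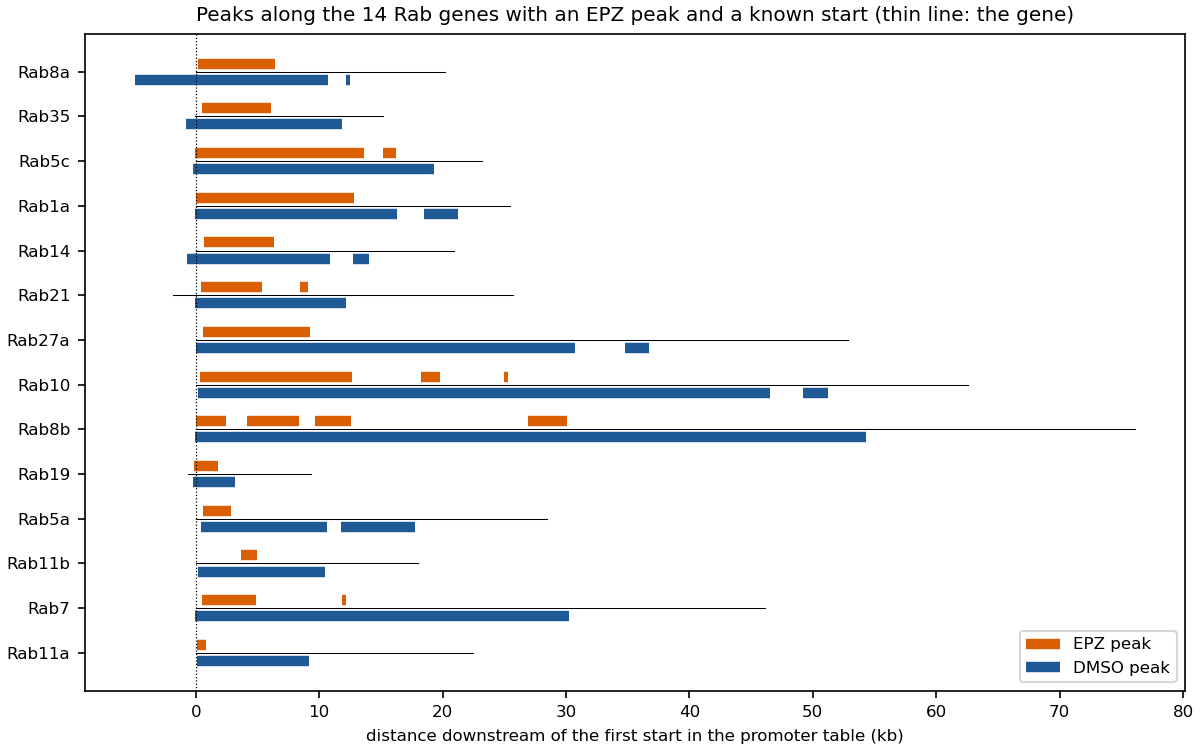
Position of EPZ peaks (orange, upper) and DMSO peaks (blue, lower) in kb downstream of the first listed start in the 14 Rab genes with an EPZ peak and a start in the promoter table, ordered by DMSO fold enrichment. In 13 of the 14 the highest EPZ peak begins within 1 kb of the start (73.6% over all such genes), and in Rab11b it begins 3.66 kb downstream.

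Of 6 early endosome Rabs, 3 were marked with EPZ and 5 with DMSO. The 3 genes for Rab5, the GTPase that drives fusion of incoming vesicles with early endosomes, differed among themselves. Rab5c kept the largest share of its DMSO bases of any member, 76.3%, with 14.7 kb in EPZ peaks, against 19.3 kb in DMSO at 8.16. Rab5a had 2.26 kb in EPZ peaks, 14.0% of its DMSO bases, against 16.2 kb in DMSO at 5.18. Rab5b had no EPZ peak, against 2.41 kb in 2 DMSO peaks, the higher at 4.36 with 1.63 kb in Rab5b and 0.361 kb in Pmel. Rab21, which acts in integrin endocytosis, had 5.54 kb in EPZ peaks, against 12.2 kb in DMSO at 6.46. Rab22a had no EPZ peak, against 6 separate DMSO peaks over 11.5 kb, the highest at 4.39 and nearest the start. Rab31 was unmarked.

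Of 7 Rabs of recycling endosomes, 4 were marked with EPZ and 5 with DMSO. Rab35, a Rab of fast recycling, had 5.55 kb in EPZ peaks, against 12.0 kb in DMSO at 8.45. Rab14, which links the Golgi and endosomes, had 5.68 kb in EPZ peaks, against 12.2 kb in DMSO at 6.63. In both genes the EPZ peak began more than 0.5 kb downstream of the start and the DMSO domain upstream of it. The slow-recycling pair kept less. Rab11a had 0.751 kb in EPZ peaks, 8.28% of its DMSO bases and the smallest share of any member, against 9.07 kb in DMSO at 4.31. Rab11b had 1.31 kb in EPZ peaks, against 10.3 kb in DMSO at 4.76. Their EPZ peaks had −log10 q values of 2.38 and 1.48. With a −log10 q of at least 5 these EPZ calls ended, as did those of Rab14, Rab19, Rab21, Rab5a and Rab7. Rab4b, another Rab of fast recycling, had no EPZ peak and the lowest DMSO value of the marked members, 2.86, while Rab4a and the epithelial Rab25 were unmarked.

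Of 7 Rabs of late endosomes and lysosomes, 1 was marked with EPZ and 3 with DMSO. Rab7, the central Rab of late endosomes, had 4.72 kb in EPZ peaks, against 30.3 kb in a single DMSO peak at 4.54. It kept 15.6% of its DMSO bases. Rab9, which returns receptors from late endosomes to the Golgi, had no EPZ peak, against 13.1 kb in DMSO at 3.81, and Rab29 none, against 0.524 kb at 3.24. Rab7b, Rab9b and the melanosome Rabs Rab32 and Rab38 were unmarked.

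Of 11 Rabs of the endoplasmic reticulum and Golgi, 2 were marked with EPZ and 7 with DMSO. Rab1a, which drives transport from the endoplasmic reticulum to the Golgi, had 12.8 kb in EPZ peaks, 66.9% of its DMSO bases, against 19.1 kb in DMSO at 7.74. Rab2a had 15.0 kb in EPZ peaks, the most of any member, against 34.1 kb in DMSO at 5.72. The other 5 marked members had lower DMSO values and no EPZ peak. These were Rab6a, of retrograde Golgi transport, at 4.31, Rab18, a Rab of lipid droplets, at 3.82, Rab33b at 3.81, Rab1b at 3.78 and Rab43 at 3.33. Rab2b, Rab6b, Rab30 and Rab33a were unmarked, although a DMSO peak lay 176 bases from Rab2b and 378 bases from Rab30.

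The other 16 members were marked in 1 case with EPZ and in 4 with DMSO. Rab19 had 1.92 kb in EPZ peaks, against 3.37 kb in DMSO at 5.35. Without an EPZ peak were Rab24, an autophagy Rab, at 7.50 in DMSO, Rab12, which directs transferrin receptor to degradation, at 4.90, and Rab40c, which carries a SOCS box, at 3.63. The Rab24 peak had 1.90 kb in that gene, 4.60 kb in Mxd3 and 3.22 kb in Prelid1, and an EPZ peak lay 21 bases upstream of the Rab24 start, outside the gene. The 12 unmarked members were Rab15, Rab17, Rab20, Rab23, Rab28, Rab34, Rab36, Rab39, Rab39b, Rab40b, Rab42 and Rab44. Among them is Rab23, a negative regulator of hedgehog signalling.

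**Figure D3:**
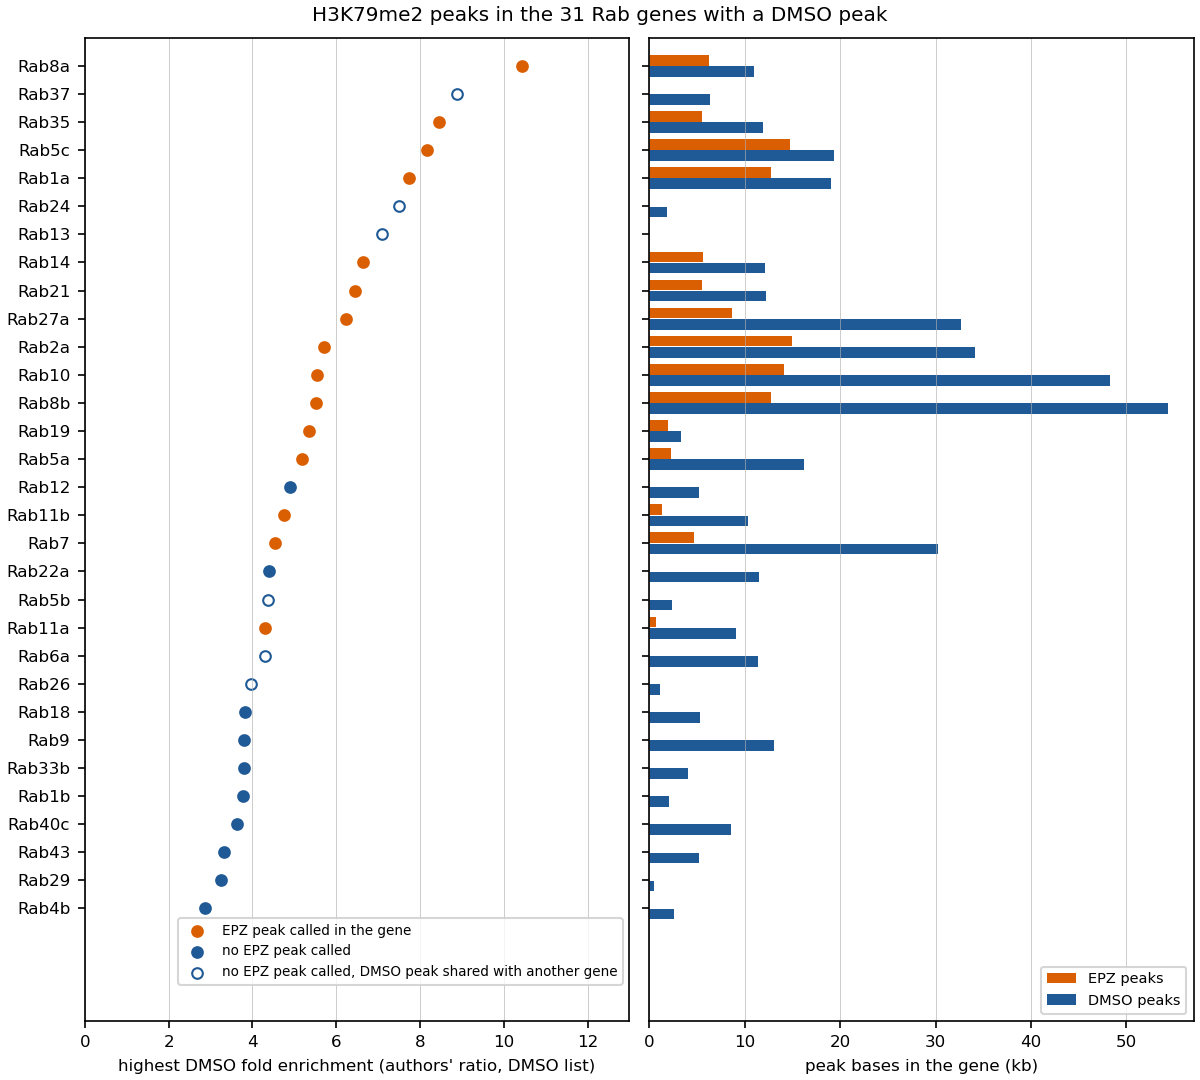
The 31 DMSO-marked Rab genes ordered by their highest DMSO fold enrichment (left), with open circles where that peak also overlaps another protein-coding gene, and the kb of the gene under EPZ and DMSO peaks (right). No gene below Rab11a, at 4.31, has an EPZ peak, and Rab13 has only 0.008 kb under DMSO peaks.

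Paralogs were marked alike in some families and differently in others, where 52.5% of all Rab genes were marked in DMSO. Symbols that share a number made up 14 families, of which 4 (Rab1, Rab5, Rab8 and Rab11) had every member marked in DMSO and 2 (Rab3 and Rab39) had none. In the other 8 families 1 member was marked and 1 was not, which were Rab2a, Rab4b, Rab6a, Rab7, Rab9, Rab27a, Rab33b and Rab40c on the marked side. Of these 8 marked members 3 had EPZ peaks (Rab2a, Rab7 and Rab27a). Rab2b was marked in DMSO as well when genes were extended by 1 kb. Outside the 14 families 14 of 28 Rab genes were marked in DMSO. How many families of mixed marking the overall share alone would give was not tested. Marked and unmarked Rab genes had median lengths of 23.2 and 23.7 kb, whereas over all protein-coding genes the marked ones were longer, at 23.4 against 13.7 kb.

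Marked Rab genes had more bases under DMSO peaks than marked genes at large, summed over the separate peaks of a gene. More than 1 DMSO peak lay in 51.6% of marked Rab genes, against 31.4% of all marked genes. DMSO peaks covered a median of 10.3 kb of a marked Rab gene (interquartile range 3.70 to 14.6), against 4.10 kb over all marked genes (1.86 to 10.0), while the median fold enrichment was 4.90, against 4.47. In share of the gene the medians were 40.4%, against 23.7%. In the 15 genes with both, EPZ peaks held a median of 43.9% of the DMSO bases (interquartile range 19.5 to 51.8), against 34.3% over all 3486 such genes (18.4 to 55.4). These medians were not tested against each other. Summed over the family, EPZ peaks covered 112.1 kb, 27.6% of the 405.6 kb in DMSO, and the figure over all genes was 26.6%.

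Whether a Rab gene had an EPZ peak went with its DMSO fold enrichment. The 15 members with an EPZ peak had DMSO values from 4.31 to 10.4, with a median of 5.72, and the 16 without had values from 2.86 to 8.89, with a median of 3.89, so the groups overlapped. All marked genes were split into 4 bins of equal size by DMSO fold enrichment. In the lower bins, up to 4.47, 1 of 13 members had an EPZ peak (7.69%), near the 10.2% of all genes. In the bin from 4.47 to 5.99 it was 7 of 8, all but Rab12, against 71.5% of all genes. In the highest bin, from 5.99, it was 7 of 10 members, against 92.5% of all genes. The 3 without were Rab37, Rab24 and Rab13, whose highest DMSO peaks each also covered a neighbouring gene. Of the 6 members in that position, Rab5b, Rab6a and Rab26 included, 0 had an EPZ peak, against 49.2% of all 1739 such genes. With each gene extended by 1 kb, Rab13, Rab24 and Rab37 had an EPZ peak, which made 3 of these 6 members, against 61.5% of all such genes, and 10 of 10 in the highest bin, against 97.0%. Among the 25 members alone under their highest DMSO peak 15 had one (60.0%, 95% interval 38.7 to 78.9), against 45.2% of all such genes.

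**Figure D4:**
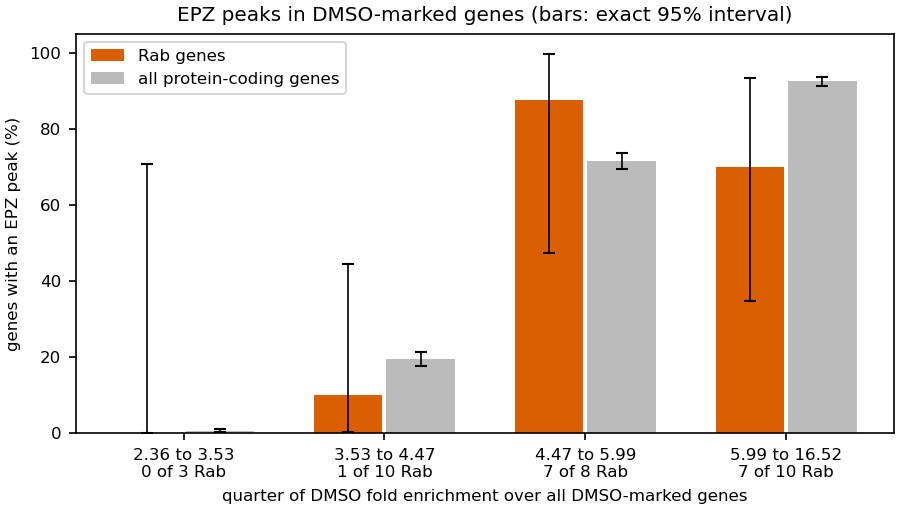
Percentage of DMSO-marked genes with an EPZ peak (y axis) for Rab genes and for all protein-coding genes, by bin of DMSO fold enrichment, each with an equal number of all marked genes (x axis), with exact 95% intervals. The Rab intervals span the values of all genes in all 4 bins, and in the highest the interval of 34.8 to 93.3% holds the 92.5% of all genes.

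The highest EPZ peaks of Rab genes, like those of other genes, mostly began near the start. Further EPZ peaks in Rab8b, Rab10, Rab5c, Rab7 and Rab21 began from 4.17 to 26.9 kb downstream of it. The first start in the RefSeq promoter table could be placed for 48 of the 59 members, 27 of the 31 marked ones and 14 of the 15 with an EPZ peak. In these 14 genes the median of the near edge was 0.393 kb downstream of the start for the highest EPZ peak, against -0.073 kb, just upstream of it, for the highest DMSO peak. The median of the far edge was 5.70 kb for EPZ, against 12.0 kb for DMSO. Over all 2831 such genes the EPZ near edge had a median of 0.370 kb, close to that of Rab genes, and the far edges had medians of 3.15 kb for EPZ and 8.25 kb for DMSO. The highest EPZ peak began within 1 kb of the start, on either side, in 13 of 14 members, against 73.6% of all such genes. The start itself was covered by the highest EPZ peak in 2 of 14 members (Rab5c and Rab19), against 17.6% of all such genes, and by the highest DMSO peak in 13 of 27, against 37.9%. The highest DMSO peak began within 1 kb of the start, on either side, in 24 of 27 members, against 66.6% of all marked genes. The other 3 were Rab8a, Rab13 and Rab24, whose peaks began further upstream.

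The promoter windows of marked Rab genes held a median of 25 CpG dinucleotides in 300 bases, against 16 in unmarked ones. Over all genes the medians were 22 and 6. The ranges of marked and unmarked Rab genes overlapped widely, from 9 to 43 and from 5 to 42. The letters CCGGAA, the core of ETS factor sites, stood on either strand in 10 of 27 windows of marked Rab genes and in 3 of 21 of unmarked ones. The share was 34.6% over all marked genes, 10.7% over unmarked ones and 19.1% over all genes. The E-box CACGTG stood in 3 of 27 and 2 of 21 Rab windows. Its shares were 10.5% over all marked genes, 6.5% over unmarked ones and 7.91% over all genes. CCAAT stood in 14 of 27 and 9 of 21, against 39.5, 39.0 and 39.2% in the same order. TATAAA stood in 1 of 27 and 3 of 21, against 6.41, 17.1 and 13.3%. GGGCGG, a GC box, stood in 19 of 27 and 15 of 21, against 66.5, 35.4 and 46.3%. TGACGTCA, the cyclic AMP response element, stood in 1 of 27 and 1 of 21, against 3.59, 1.64 and 2.33%. Each motif was searched separately on both strands, so matches may share bases, and a match is a description of letters only.

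The genes that load, carry, switch off or read Rabs were counted in the same way. The lists of carriers, exchange factors, GTPase activating proteins and effectors held 91 genes, of which 23 were marked with EPZ, 0 with SGC and 54 with DMSO (59.3%, against 34.5% of all genes). Of the DMSO-marked ones 42.6% had an EPZ peak, near the 46.1% of all DMSO-marked genes. Of the 7 genes for lipid attachment and for carriage of the GDP form, 4 were marked with EPZ and 5 with DMSO. Over all genes these shares were 15.9% and 34.5%. Gdi2, the carrier that extracts Rabs from membranes, had 8.63 kb in EPZ peaks, 83.9% of its DMSO bases, against 10.3 kb in DMSO at 8.04. Rabggtb, a subunit of the enzyme that attaches the lipid, was at 6.99 in DMSO with an EPZ peak, and Chm, which presents Rabs to that enzyme, was at 3.53 without one.

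Exchange factors, which load Rabs with GTP, were marked in 8 of 26 cases with EPZ and 18 with DMSO, against 15.9% and 34.5% of all genes. Of the DMSO-marked exchange factors 44.4% had an EPZ peak, near the 46.1% of all DMSO-marked genes. Those of highest DMSO value with an EPZ peak were Sbf1 at 8.51, Dennd4a at 8.18 and Madd, an exchange factor for Rab3 and Rab27, at 7.35. Dennd5a, Ric1 and Dennd6a led those without, from 4.23 to 3.88. GTPase activating proteins, which switch Rabs off, were marked in 7 of 24 cases with EPZ and 15 with DMSO. Of the DMSO-marked activating proteins 46.7% had an EPZ peak, near the same 46.1%. Tbc1d10c at 9.90, Tbc1d10b at 9.18 and Tbc1d15 at 5.85 led those with an EPZ peak, and Tbc1d1 at 4.67, Rabgap1 at 4.37 and Tbc1d10a at 4.35 those without. The Tbc1d10c peak also covered 2 other protein-coding genes.

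Effectors, which bind the GTP form, were marked in 4 of 34 cases with EPZ and 16 with DMSO. Rilpl2 at 7.69, Mical1 at 4.56 and Appl1 at 4.38 led those with an EPZ peak, and Uso1, Bicd2 and Plekhm1, from 4.25 to 4.14, those without. Among effectors of Rab27a, Unc13d, the priming factor of lytic granules, had 0.925 kb in EPZ peaks, against 2.69 kb in DMSO at 4.07, in a peak shared with another gene. Sytl2, a granule tether, had no EPZ peak, against 4.06 kb in DMSO at 3.16. Sytl1 had no peak in any list.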

How the data were processed

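The members and gene lists were chosen with earlier results of these data known. MACS2 2.2.7.1, BWA 0.7.17-r1188 and Picard appear in the submitters' processing notes, with mm10, GRCm38 and sacCer3 as builds. How replicates were combined, what the inputs and the yeast spike-in were used for, and the calling thresholds were not given in the sources used here. Since 1 list came per treatment, it was treated as covering both replicates. The deposited fold enrichment is the authors' ratio of a peak over background, as the broad peak layout gives it. The deposited −log10 q is the authors' value per peak and served only for a stricter list, and the −log10 p column of each of the 3 lists was not used. The deposited score is −log10 q times 10 with decimals dropped, save for 1 EPZ peak, and entered no result.

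Peaks were intersected with RefSeq gene intervals in Python 3.11.15 with pandas 2.3.3, and intervals of shares came from SciPy 1.17.1. A peak marked every protein-coding gene it overlapped by 1 base. Start sites and strand came from the RefSeq promoter table (GRCm38.p6), which held 17492 of 21900 protein-coding genes. The overlap code was tested on simulated peaks. Every Rab gene with a peak is named. From the carrier, exchange factor, activating protein and effector lists the 3 highest DMSO values with and without an EPZ peak were taken, plus Unc13d, Sytl1, Sytl2 and Gdi2. The carrier list had 1 marked member without an EPZ peak, and some items of these and other lists are not reported here. Exons and introns were not analysed here.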

Additional observations from a re-analysis of the deposited data

How the results depend on the processing

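Of the 23 recomputed values 20 stayed within the interval of the reported value or, for SGC peaks, at a count of 0, and 3 moved beyond it. The SGC count of 0 could rise only when genes were extended by 1 kb. The other settings only take peaks or bases away, so an unchanged 0 under them says nothing about stability. Requiring a −log10 q of at least 5 in every list gave 30.5% of Rab genes marked in DMSO and raised the median DMSO fold enrichment of marked members to 6.35. Requiring EPZ peaks to cover at least 50% of the DMSO bases brought retention among DMSO-marked Rab genes down to 12.9% (Rab1a, Rab5c, Rab8a and Rab19), against 14.4% of all marked genes. Both settings make the calls stricter by construction. Extending each gene by 1 kb on either side gave Rab13, Rab24, Rab37 and Rab2b an EPZ peak and Rab2b and Rab30 a DMSO peak. The Rab13 call in DMSO ended when 500 bases were required, and those of Rab13, Rab24 and Rab26 when a peak went only to the gene it overlaps most. In the first 5 kb, run on the 48 members with a strand, no member's call changed. No paired analysis was possible because each treatment has 1 pooled list, and for the same reason no replicate could be left out. Depth is unknown, so weak peaks may be uncalled in any list.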

Other observations

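Other small GTPase families can be set beside the Rabs. Of 27 Arf family genes, which act in coat assembly and membrane traffic, 8 were marked with EPZ, 2 with SGC and 17 with DMSO. The share with DMSO was 63.0%, against 52.5% of Rab genes and 34.5% of all protein-coding genes. Over all protein-coding genes 15.9% were marked with EPZ and 0.142% with SGC. Of the DMSO-marked Arf family genes 47.1% had an EPZ peak, against 46.1% of all DMSO-marked genes. The SGC-marked genes were Arf6 and Arl4c (Arf6 was named after its values were seen), and Arl4c had the highest DMSO fold enrichment of the family, 11.0. Of 17 Ras and Rap genes, 6 were marked with EPZ, 0 with SGC and 11 with DMSO. Their share with DMSO was 64.7%, and 54.5% of their DMSO-marked genes had an EPZ peak. Rap1b, a GTPase of integrin activation, had the highest DMSO value among these, 11.6. These families were not tested against the Rab genes.

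Rab pseudogenes and antisense transcripts carry no Rab protein but share sequence or position with the members. Of 5 Rab pseudogenes 1 lay under peaks: Rab11b-ps1, inside the coding gene Ppp2r5a on chromosome 1, was covered over all of its 845 bases in both the EPZ list, at 10.7, and the DMSO list, at 8.90. The opposite-strand transcript Rab10os, which partly overlaps Rab10, had 0 bases under EPZ peaks, against 3128 in DMSO at 4.12. Those DMSO bases all lay in the part of Rab10os outside Rab10. Rab26os lay under the DMSO peak of Rab26 over 494 bases.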
